A study of Mus musculus with 6 samples.

Results

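Scpep1, Tfe3, Tom1l2, Grasp, Trappc10 and Gpr107 are 6 genes of the lysosome and of membrane trafficking, taken by name from the 99 genes of the expression table. All 6 were in the table and all 6 reached the minimum level for testing, a mean of 1 FPKM over all libraries. FPKM stands for fragments per kilobase and per unit of sequencing depth. The RNA, selected for poly(A), came from B16F10, a mouse melanoma line labelled as wild type in genotype. There were 3 libraries after 48 h with MTyr-OANPs and 3 of untreated cells. MTyr-OANPs is the submitters' code and is not expanded here. Both groups were grown in RPMI medium with fetal bovine serum. The control cells received no treatment, and no vehicle group is among the labels, so MTyr-OANPs and handling cannot be told apart. Replicates are biological by the design text, which does not describe separate cultures, and the p-values cover only the spread among these 6 libraries. The series title speaks of nutrient delivery and reactivated metabolism in melanoma, and the comparison asks which transcripts differ after that treatment.

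Lysosomes break down proteins, lipids and other material that reaches them from endosomes, from the Golgi and by autophagy. TFE3 belongs to the family of MITF and TFEB, which bind E-box sequences near lysosomal and autophagy genes, and its activity is set largely by whether the protein is kept in the cytosol or enters the nucleus. In pigment cells this family is also known for its link to melanosomes, organelles related to lysosomes. Cargo is sorted on endosomes by adaptors such as TOM1L2, passed through the Golgi with the help of TRAPP complexes, and recycled by membrane proteins and scaffolds such as GPR107 and GRASP.

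Scpep1 and Gpr107 rose after MTyr-OANPs by 1.83-fold and 1.90-fold, the largest changes among the 6 genes. Tfe3 and Grasp rose by 1.13-fold and 1.19-fold. Tom1l2 fell 1.25-fold, and Trappc10 fell 1.11-fold with libraries scaled by their implied depth, a fall that was absent under TMM scaling (log2 fold change 0.01). In edgeR's quasi-likelihood test with a threshold of 0.05 on the adjusted p, 6 of 6 genes passed, 4 higher and 2 lower. Of the 53 genes tested, 44 passed (83.0%), with 20 higher (37.7%) and 24 lower (45.3%), so a passing result was the usual outcome in this table. Under TMM scaling the balance over the tested genes turned, with 23 higher and 19 lower. Without treated library 3, 3 of the 6 genes passed, 2 higher and 1 lower, while 41 of the 53 did (77.4%). Without untreated library 2, 4 passed, 3 higher and 1 lower, while 40 of the 53 did (75.5%). The groups did not overlap in any of the 6 genes, nor in 45 of the 53 tested genes (84.9%). A called change of at least 1.5-fold was seen in 2 of the 6 genes and in 24 of the 53 (45.3%). The median log2 fold change was 0.22 over the 6 genes and -0.03 over the 53. The median size of the change without its sign was smaller in the 6 genes, at 0.29 against 0.50 on the log2 scale. In bulk RNA, a change in RNA per cell cannot be told apart from a change in the mix of cells.

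**Figure D1:**
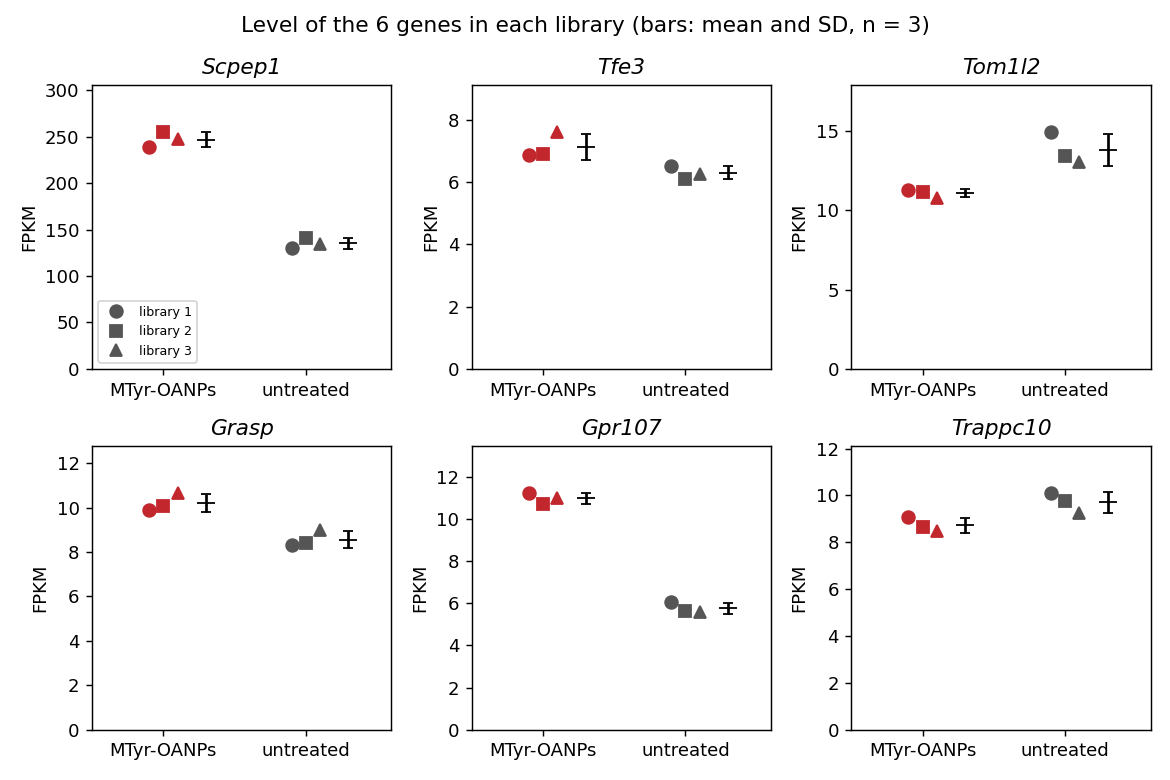
FPKM of each gene (y axes, starting at 0) in the 3 MTyr-OANPs and the 3 untreated libraries, with marker shapes for libraries 1, 2 and 3 and a bar for the mean ± SD of each group. Scpep1 and Gpr107 show wide gaps between the groups; the gap is narrow for Trappc10, whose lower level in MTyr-OANPs libraries was absent under TMM scaling.

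**Figure D2:**
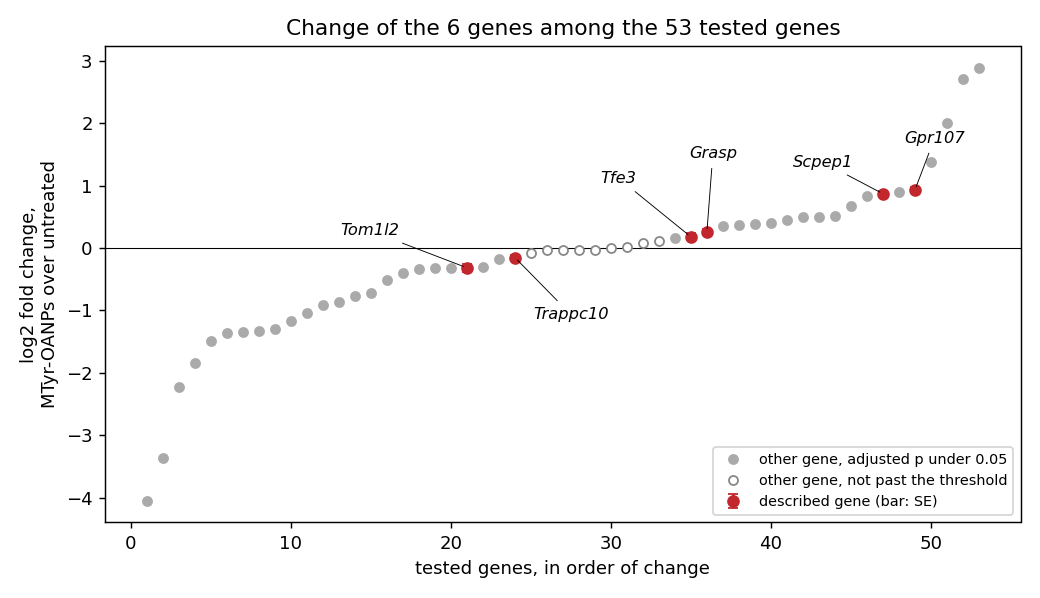
Log2 fold change of MTyr-OANPs over untreated (y axis) for the 53 tested genes in order of change (x axis), with the 6 genes in red and their SE as bars. Gpr107 and Scpep1 stand 5th and 7th from the highest, while Grasp, Tfe3, Trappc10 and Tom1l2 lie near the genes that did not pass; under TMM scaling Trappc10 lay at 0.01.

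Scpep1 (ENSMUSG00000000278) encodes a serine carboxypeptidase found in lysosomes, related to cathepsin A, that removes residues from the carboxyl end of peptides. The gene lies on the minus strand of chromosome 11 at 88924020 to 88955465 (GRCm38), with 1 annotated transcript of 13 exons. Its level was 239, 255 and 247 FPKM in MTyr-OANPs libraries 1, 2 and 3, against 130.1, 141 and 134 FPKM in untreated libraries 1, 2 and 3. Every treated library was above every untreated one, and the lowest treated value exceeded the highest untreated value by 69.0%. The means were 247 ± 8.15 FPKM after MTyr-OANPs and 135 ± 5.60 FPKM in untreated cells (SD, n = 3 each), from mean counts of 41101 and 22631. The log2 fold change was 0.87 (SE 0.04, edgeR adjusted p = 1.08e-15). Scpep1 had the highest mean FPKM of the 53 tested genes. Of its 2097 exonic bases, 96 overlap Scpep1os on the opposite strand; whether the authors counted by strand is not stated, and reads of both genes cannot be told apart there.

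Tfe3 (ENSMUSG00000000134), the transcription factor of lysosomal genes described above, lies on the plus strand of the X chromosome at 7762560 to 7775202 (GRCm38). Its level was 6.86, 6.91 and 7.60 FPKM in MTyr-OANPs libraries 1, 2 and 3, against 6.53, 6.10 and 6.27 FPKM in untreated libraries 1, 2 and 3. The groups did not overlap, but the lowest treated value exceeded the highest untreated value by only 5.14%, and treated library 3 stood above the other treated libraries. The means were 7.13 ± 0.411 FPKM after MTyr-OANPs and 6.30 ± 0.215 FPKM in untreated cells (SD, n = 3 each), with a log2 fold change of 0.18 (SE 0.06, edgeR adjusted p = 0.00807). Tfe3 had the lowest mean level of the 6 genes in MTyr-OANPs cells and the next to lowest in untreated cells. The call was lost without treated library 3 (log2 fold change 0.13, edgeR adjusted p = 0.0914) and without untreated library 2 (0.16, edgeR adjusted p = 0.0544). With a fitted line of log2 fold change on exonic length over the tested genes taken out, Tfe3 stood at -0.0014 (edgeR adjusted p = 0.989). Whether that line differs from a flat one was not tested. Under TMM scaling the Tfe3 change was larger, at 0.34 (edgeR adjusted p = 7.48e-07).

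Tom1l2 (ENSMUSG00000000538) encodes a relative of TOM1, an endosomal adaptor that binds ubiquitin and clathrin and helps to sort membrane proteins. The gene lies on the minus strand of chromosome 11 at 60226714 to 60352905 (GRCm38). Its level was 11.3, 11.1 and 10.8 FPKM in MTyr-OANPs libraries 1, 2 and 3, against 14.9, 13.4 and 13.0 FPKM in untreated libraries 1, 2 and 3. All treated libraries were below all untreated ones, and untreated library 1 was the highest of the 6. The means were 11.1 ± 0.267 FPKM after MTyr-OANPs and 13.8 ± 0.988 FPKM in untreated cells (SD, n = 3 each), a log2 fold change of -0.32 (SE 0.06, edgeR adjusted p = 3.23e-06). The untreated coefficient of variation, 7.16%, was the widest of the 6 genes, against a median of 4.56% over the tested genes in the same libraries. The change was -0.26 without untreated library 1 and -0.15 under TMM scaling, and the call held in both. Of 8764 exonic bases, 431 overlap Gm12265 on the opposite strand.

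Grasp (ENSMUSG00000000531), also known as tamalin, encodes a PDZ scaffold that binds cytohesins, activators of ARF proteins, and carries receptors to the cell surface in neurons. It is not one of the Golgi reassembly stacking proteins that share the acronym. The gene lies on the plus strand of chromosome 15 at 101224188 to 101232756 (GRCm38), with 1 annotated transcript of 8 exons. Its level was 9.89, 10.1 and 10.7 FPKM in MTyr-OANPs libraries 1, 2 and 3, against 8.31, 8.38 and 8.98 FPKM in untreated libraries 1, 2 and 3. The groups did not overlap, and the lowest treated value lay 10.1% above the highest untreated one. The means were 10.2 ± 0.406 FPKM after MTyr-OANPs and 8.56 ± 0.368 FPKM in untreated cells (SD, n = 3 each), a log2 fold change of 0.25 (SE 0.05, edgeR adjusted p = 0.0240). Grasp had the lowest counts of the 6 genes, between 1313 and 1847 per library. The call was lost without treated library 2, treated library 3 or untreated library 1, with edgeR adjusted p = 0.0771, 0.0656 and 0.0666. Under TMM scaling the Grasp change was larger, at 0.42 (edgeR adjusted p = 0.000475).

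Trappc10 (ENSMUSG00000000374) encodes a subunit of the TRAPPII complex, which activates Rab GTPases at the Golgi. The gene lies on the minus strand of chromosome 10 at 78186725 to 78244641 (GRCm38). Its level was 9.08, 8.64 and 8.47 FPKM in MTyr-OANPs libraries 1, 2 and 3, against 10.1, 9.77 and 9.24 FPKM in untreated libraries 1, 2 and 3. The groups came close without overlapping: treated library 1 stood at 9.08 FPKM and untreated library 3 at 9.24 FPKM. The means were 8.73 ± 0.315 FPKM after MTyr-OANPs and 9.71 ± 0.434 FPKM in untreated cells (SD, n = 3 each), a log2 fold change of -0.15 (SE 0.05, edgeR adjusted p = 0.0116). TMM scaling, computed on the 99 genes, raised the median log2 fold change by 0.16 and left Trappc10 at 0.01 (edgeR adjusted p = 0.873). With the size factors of DESeq2 the change was -0.09 and was not called, either in edgeR (adjusted p = 0.148) or in DESeq2 (adjusted p = 0.106). It was also not called without treated library 3 (edgeR adjusted p = 0.0699) or untreated library 2 (edgeR adjusted p = 0.0518). With the fitted line on exonic length taken out, the Trappc10 change was larger, at -0.30 (edgeR adjusted p = 1.33e-05).

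Gpr107 (ENSMUSG00000000194) encodes a membrane protein of the Golgi and its transport vesicles with the topology of a G protein-coupled receptor, known from human cells as a factor that some bacterial toxins need on their way through the Golgi. The gene lies on the plus strand of chromosome 2 at 31152316 to 31218775 (GRCm38). Its level was 11.2, 10.7 and 11.0 FPKM in MTyr-OANPs libraries 1, 2 and 3, against 6.07, 5.64 and 5.59 FPKM in untreated libraries 1, 2 and 3. Every treated library was above every untreated one, with a gap of 76.5% between the nearest values, the widest of the 6 genes. The means were 11.0 ± 0.261 FPKM after MTyr-OANPs and 5.77 ± 0.263 FPKM in untreated cells (SD, n = 3 each), a log2 fold change of 0.93 (SE 0.04, edgeR adjusted p = 2.32e-15). With the fitted line on exonic length taken out, the change was 0.68 and was still called. Of 12766 exonic bases, 301 overlap Gm13405 on the opposite strand. Of the 50-base stretches of the Gpr107 transcripts, 1.39% also occur in transcripts of other genes, 579 genes in all. The part of such stretches in the counts was not tested. The transcripts of the other 5 genes shared no such stretch, with sequences read in the same orientation only. The search thus did not cover the overlaps with genes on the opposite strand given for Scpep1, Tom1l2 and Gpr107.

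Promoters, the 250 bases before a gene's start to 50 after it (RefSeq, GRCm38.p6), were matched by symbol for all 6 genes, with a pair of starts for Tfe3. They were searched for 2 motifs that the TFE3 family is known to bind, the E-box CACGTG and the M-box core TCATGTG. The E-box reads the same on both strands, and TCATGTG was also searched as CACATGA. Neither motif contains the other. The E-box was found in the promoter of 1 of the 6 genes, Trappc10, where it begins 200 bases before the start; 7.15% of all 32851 promoters hold it, as do 8.09% of all genes with a promoter and 12 of 76 such genes of the table (15.8%). TCATGTG was found in none of the 6, against 3.77% of all promoters. Trappc10 was not among the genes that rose, and whether either motif bears on any of the changes was not tested. A match of letters is not a binding site, and a missing match says only that these letters are not in this window. The 250 bases before the start are given 5′ to 3′ for Trappc10, with the E-box in capitals, and for the genes with the largest rises, Gpr107 and Scpep1, which hold neither motif. They span chr10:78244646-78244895 on the minus strand for Trappc10, chr2:31152066-31152315 on the plus strand for Gpr107 and chr11:88955443-88955692 on the minus strand for Scpep1.
Trappc10: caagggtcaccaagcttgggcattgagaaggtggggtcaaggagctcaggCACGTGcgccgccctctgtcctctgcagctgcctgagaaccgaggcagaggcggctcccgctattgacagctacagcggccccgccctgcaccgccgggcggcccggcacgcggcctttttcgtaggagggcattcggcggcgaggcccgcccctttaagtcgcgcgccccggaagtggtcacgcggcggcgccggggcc
Gpr107: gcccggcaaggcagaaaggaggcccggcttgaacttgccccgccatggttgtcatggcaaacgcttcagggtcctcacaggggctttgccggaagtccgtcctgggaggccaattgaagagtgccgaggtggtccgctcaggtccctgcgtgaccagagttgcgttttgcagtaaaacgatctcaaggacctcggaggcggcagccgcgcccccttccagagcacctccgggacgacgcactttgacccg
Scpep1: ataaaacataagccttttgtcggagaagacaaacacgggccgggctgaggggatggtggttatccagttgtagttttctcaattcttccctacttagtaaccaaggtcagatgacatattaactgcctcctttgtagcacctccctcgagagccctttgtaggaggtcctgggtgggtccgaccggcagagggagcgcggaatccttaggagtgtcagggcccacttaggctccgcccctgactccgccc
The 300-base promoters were 73% G and C for Trappc10, 62.3% for Gpr107 and 56.3% for Scpep1, against a median of 52.7% over all promoters.

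The order of the levels differed between the groups. In MTyr-OANPs cells the order of mean FPKM, from the highest, was Scpep1, Tom1l2, Gpr107, Grasp, Trappc10 and Tfe3. In untreated cells it was Scpep1, Tom1l2, Trappc10, Grasp, Tfe3 and Gpr107. Neighbours in each order had separate ranges over the 3 libraries, except Tom1l2 and Gpr107 in MTyr-OANPs cells. Some of these steps were very narrow. In untreated cells the lowest Tfe3 value was 6.10 FPKM and the highest Gpr107 value 6.07 FPKM. In MTyr-OANPs cells the lowest Gpr107 value was 10.72 FPKM and the highest Grasp value 10.66 FPKM. Gpr107 therefore stood at place 3 of 6 in MTyr-OANPs cells and last in untreated cells. Counts divided by FPKM gave the length that the authors' FPKM values use, and for each of the 6 genes it lay within 10 bases of the summed length of all annotated exons. That sum covers the exons of all annotated transcripts of a gene. It exceeds the longest transcript 2.08-fold for Gpr107 (12766 against 6134 bases), 1.75-fold for Tom1l2, 1.61-fold for Trappc10 and 1.46-fold for Tfe3. For Scpep1 and Grasp it equals the longest transcript. Per longest transcript, Gpr107 would stand at place 2 of 6 in MTyr-OANPs cells, at 22.8, and at place 4 in untreated cells, at 12.0 on the FPKM scale, and Grasp would be last in both groups. The fold changes do not depend on this length. The counts are per gene and do not tell transcripts apart, of which 14 are annotated for Tfe3, 11 each for Tom1l2 and Gpr107, and 5 for Trappc10.

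Ratios of FPKM between 2 of the genes within 1 library do not depend on how libraries are scaled to each other. The ratio of Gpr107 to Tom1l2 was 0.995, 0.962 and 1.02 in MTyr-OANPs libraries 1, 2 and 3, against 0.407, 0.420 and 0.429 in untreated libraries 1, 2 and 3. On the FPKM scale their levels were thus close in treated cells and far apart in untreated cells. Per longest transcript, the means of Gpr107 and Tom1l2 were 22.8 and 19.4 in treated cells, against 12.0 and 24.2 in untreated cells. The difference in log2 ratio was 1.24 (SE 0.03) and does not depend on the length used. The ratio of Scpep1 to Trappc10 was 26.3, 29.5 and 29.2 in MTyr-OANPs libraries 1, 2 and 3, against 12.9, 14.4 and 14.5 in untreated libraries 1, 2 and 3, a difference of 1.02 (SE 0.08). The ratio of Trappc10 to Tom1l2 was 0.804, 0.776 and 0.786 in MTyr-OANPs libraries, against 0.678, 0.727 and 0.709 in untreated libraries, higher in each treated library than in any untreated one (difference in log2 ratio 0.16, SE 0.03). Of the 15 pairs of the 6 genes, 13 had ratios that did not overlap between the groups; the same held for 1194 of the 1378 pairs of tested genes (86.6%), so such a count is usual in this table. An exact permutation test of 3 against 3 libraries, two-sided, cannot go below p = 0.1, and these 13 pairs were at that limit (Benjamini-Hochberg adjusted p = 0.115 over 15 pairs). The ratios of the other 2 pairs overlapped. Gpr107 over Scpep1 differed by 0.06 in log2 ratio (SE 0.08, exact permutation p = 0.4), and Grasp over Tfe3 by 0.08 (SE 0.05, exact permutation p = 0.2). With all 6 libraries, the sizes of the 2 largest rises were therefore not separated by their ranges, nor were those of the 2 small rises. Without treated library 3, untreated library 1 or untreated library 3, 14 of the 15 pairs did not overlap. With its limit of p = 0.1, the permutation test could not pass a threshold of 0.05 for any pair.

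**Figure D3:**
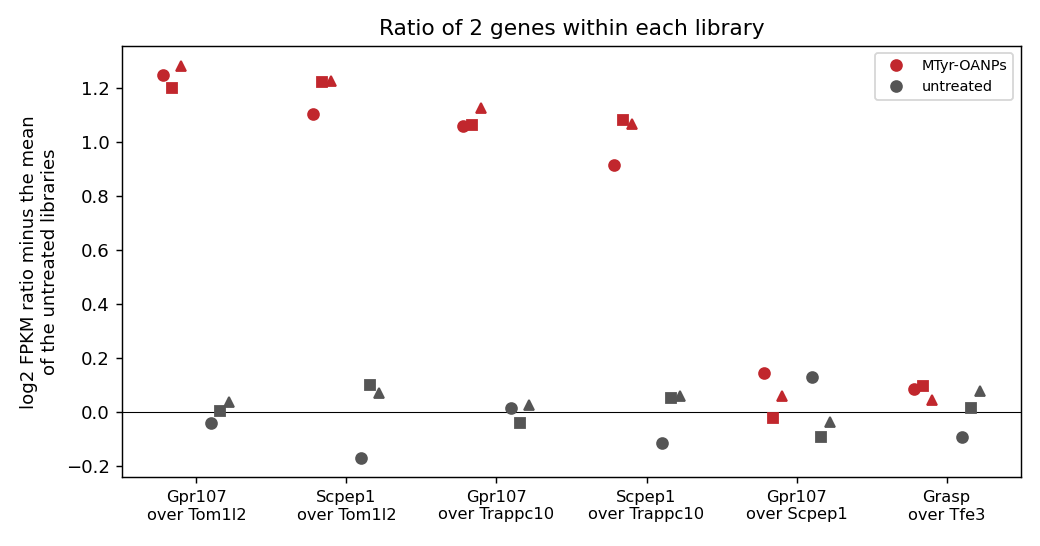
Log2 ratio of FPKM between 2 genes in the same library (y axis), set to the mean of the untreated libraries, for the 4 pairs with the largest differences and the 2 pairs that overlapped; shapes mark libraries 1, 2 and 3. For Gpr107 over Tom1l2 the MTyr-OANPs libraries lie 1.24 above the untreated ones on average, while for Gpr107 over Scpep1 and Grasp over Tfe3 the groups overlap.

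Other genes of the same pathways were few in the table. Of all 53 tested genes, 37.7% were called higher and 45.3% lower, and lists of 2 or 3 genes are too short to set against these shares. Of 65 lysosome and autophagy genes listed, 2 were in the table, Scpep1 and Tfe3, and both rose. Both were already among the genes chosen by name, so this list added no further gene and does not test the pathway. Tfe3 was called higher in only 16 of 19 alternatives. Of 51 genes of endosomal sorting and endocytosis, 3 were in the table: Grasp rose, while Tom1l2 and Cav2, a caveolin of plasma membrane pits, fell. Cav2 had 9.92, 10.5 and 10.6 FPKM in MTyr-OANPs libraries 1, 2 and 3, against 27.6, 25.5 and 27.0 FPKM in untreated libraries 1, 2 and 3, a log2 fold change of -1.37 (SE 0.04, edgeR adjusted p = 6.94e-17). Of 47 genes of the Golgi and of secretory transport, 3 were in the table: Gpr107 and Tpd52l1 rose, and Trappc10 fell as reported but was called in only 14 of 19 alternatives and stood at 0.01 under TMM scaling. Tpd52l1, of the D52 family linked to vesicle transport, had 32.0, 32.7 and 33.0 FPKM in MTyr-OANPs libraries 1, 2 and 3, against 21.8, 23.0 and 24.4 FPKM in untreated libraries 1, 2 and 3, a log2 fold change of 0.50 (SE 0.05, edgeR adjusted p = 1.24e-06). In the deposited annotation no gene of the table carries a GO term that names the lysosome. Gpr107 and Grasp carry a term naming endosomes, Trappc10 and Gpr107 one naming the Golgi, and Tom1l2 and Gpr107 one naming clathrin.

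Likeness between profiles was measured as Pearson's r of log2(FPKM + 1) over the 6 libraries, against the 47 other tested genes. It is a description, since the groups themselves set most of it. The profile most like that of Gpr107 was of Gnai3, a G protein alpha subunit (r = 0.999), and that most like Scpep1 was of Itga5, an integrin alpha chain that pairs to bind fibronectin (r = 0.997). Tfe3 was most like Scmh1, a Polycomb group gene (r = 0.974), and Grasp most like Tpd52l1 (r = 0.972). The next gene in line came close, with r = 0.998 for Gpr107, 0.997 for Scpep1 and 0.964 for Grasp, but 0.87 for Tfe3. The likeness of Gpr107 and of Scpep1 is thus not particular to the gene named. Scmh1 averaged 3.86 ± 0.435 FPKM in MTyr-OANPs cells and 2.94 ± 0.305 FPKM in untreated cells (SD, n = 3 each).

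The implied depth of the libraries relative to each other ran from 0.850 to 1.07, and counts of the 6 genes from 1313 to 45394. None of 7 pigment-cell markers was analysed here, so the labelled cell type could not be checked. Of 8 leukocyte markers 4 were in the table, with a summed level of 2.71 to 3.31 FPKM in MTyr-OANPs libraries and 1.67 to 2.26 FPKM in untreated libraries. These 4 went different ways: Itgb2 averaged 1.62 FPKM in MTyr-OANPs libraries and 0.404 FPKM in untreated libraries, Lck 1.29 FPKM in MTyr-OANPs libraries and 0.291 FPKM in untreated libraries, and Tspan32 0.0991 FPKM in MTyr-OANPs libraries and 1.21 FPKM in untreated libraries. Clec10a had no count in any MTyr-OANPs library. Of 5 fibroblast markers 1 was present, Fap, with no count in 5 of the 6 libraries. The single epithelial marker of 5, Cdh1, stayed at or below 0.0386 FPKM, and the single endothelial marker of 4, Acvrl1, had 2.74 to 4.64 FPKM in MTyr-OANPs libraries and 9.93 to 10.1 FPKM in untreated libraries. The part of such markers in the results was not tested.

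The calls of Scpep1, Gpr107 and Tom1l2 held under all 19 alternative settings of the test. Over these settings the log2 fold change ran from 0.84 to 1.03 for Scpep1, from 0.68 to 1.09 for Gpr107 and from -0.48 to -0.15 for Tom1l2. In the alternatives that tested the same 53 genes, 40 to 45 genes were called. How many of the tested genes held their call under all 19 was not counted.

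**Figure D4:**
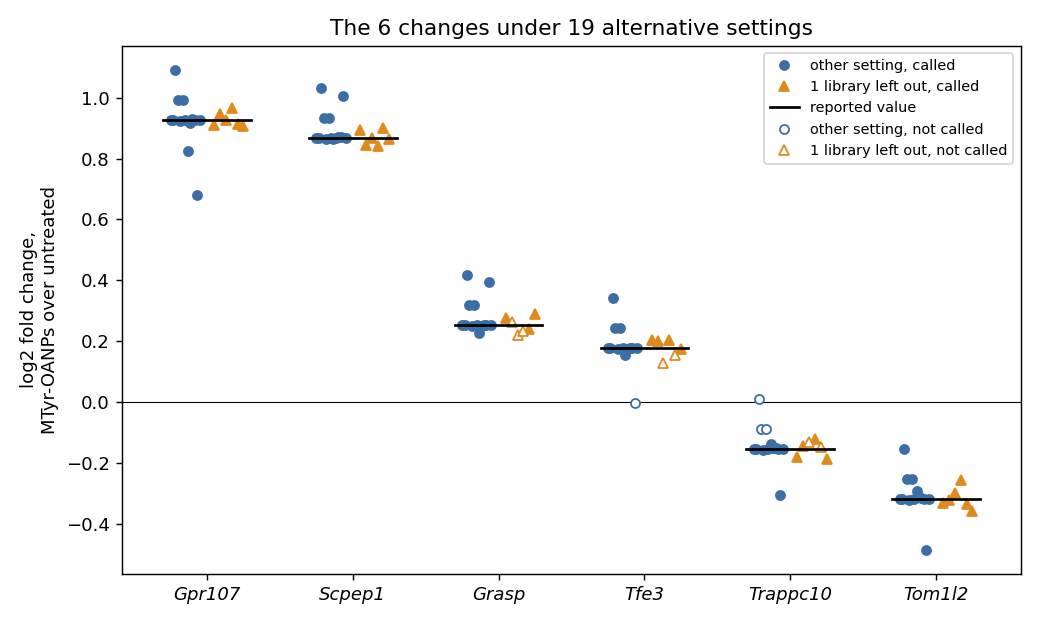
Log2 fold change of MTyr-OANPs over untreated (y axis) of each gene under 13 other settings (circles) and with 1 library left out (6 triangles); filled markers passed the threshold of 0.05 on the adjusted p, open ones did not, and lines mark the reported values. Open markers are seen for Grasp, Tfe3 and Trappc10, and Trappc10 reaches 0.01 under TMM scaling and Tfe3 -0.0014 with the length trend removed.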

How the data were processed

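The deposited table holds whole-number counts per gene and library made by the authors, and the authors' FPKM values beside them, per the file headers. CASAVA 1.4 and the build mm9 are named in the submitters' processing notes; the aligner, counter, strand setting and annotation were not given in the sources used here. Of the 99 genes, 86 have both ends as in GENCODE M21 (GRCm38), so coordinates are on GRCm38. Columns named TyrOA were read as the MTyr-OANPs libraries, the only treatment in the labels. A count of 0 is listed as 0.0001 FPKM.

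Relative depths were taken from the count to FPKM ratio of 59 genes with counts of at least 50. These depths were the library sizes in the two-sided quasi-likelihood test of edgeR 4.0.16 (R 4.3.3) with Benjamini-Hochberg adjustment over the 53 genes whose mean FPKM was at least 1. The SE of a log2 fold change is that of the difference between group means of log2 FPKM. The test draws on the spread of all tested genes (median prior degrees of freedom 19.7). Libraries of 1 group differed beyond sampling noise (chi-square per gene of 10.05 to 20.32 within groups). Alternatives used limma 3.58.1, DESeq2 1.42.0, other scalings and filters, and left out each library. The 6 genes and the gene lists were chosen with earlier results of these data known. Named genes are the 6, every gene of the 3 pathway lists in the table, and for each of the 6 the gene with the most similar profile, besides cell type markers in the table; the most similar profile of Tom1l2 and Trappc10 is not reported here. Ratios of 2 genes were compared by an exact permutation test.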

Additional observations from a re-analysis of the deposited data

How the results depend on the processing

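Of the 19 alternatives, all were planned; the cause of each lost call was not tested unless stated. Over all tested genes 35 to 51 passed, against 44, with fewer genes tested at a minimum of 5 FPKM and more with no minimum. Of the 6 genes, 6 were called as reported and 3 to 6 with 1 library left out, 2 to 4 higher and 1 to 2 lower, where 40 to 44 of the 53 tested genes were called. With 1 library left out the log2 fold change ran from 0.13 to 0.20 for Tfe3, from 0.22 to 0.29 for Grasp and from -0.19 to -0.12 for Trappc10; without treated library 3 these 3 genes all lost the call. Under TMM scaling, with DESeq2 size factors in edgeR and in the DESeq2 test, 1 gene was called lower instead of 2: Trappc10 was at 0.0106 (adjusted p = 0.873), -0.0887 (adjusted p = 0.148) and -0.0889 (adjusted p = 0.106). These scalings raised the changes, by a median of 0.16, 0.06 and 0.06 on the log2 scale. With the fitted length trend removed (a slope of 0.15 per doubling of length, itself not tested) Tfe3 was at -0.0014. Gpr107 over Scpep1 differed by -0.0404 in log2 ratio on log2(FPKM + 1), against 0.06. The replicate block gave 45 calls and changed no call of the 6 genes. Deviations from the group means had correlations of 0.31, 0.40 and -0.01 in same-numbered libraries, against -0.40 to 0.13 in differently numbered ones. The labels do not say that the number marks a shared culture or day, and not every same-numbered pair exceeded 0.1, so the numbers were not used as pairs. Trappc10 was called in its reported direction in 14 of the 19 alternatives, Tfe3 and Grasp in 16 each.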

Other observations

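Deviations of single libraries from their group mean were alike between same-numbered libraries for some of the 6 genes, although the labels do not say what the number stands for. Scpep1 deviated by -3.37% in treated library 1 and -3.79% in untreated library 1, and by 3.22% and 4.42% in libraries 2. Grasp deviated by 4.50% in treated library 3 and 4.95% in untreated library 3. Trappc10 deviated by 4.01% and 4.10% in libraries 1 and by -2.98% and -4.77% in libraries 3. For Tfe3 they differed in libraries 3, with 6.65% in treated library 3 and -0.536% in untreated library 3. They also differed in libraries 1, with -3.66% and 3.65%, but were alike in libraries 2, with -2.99% and -3.12%. Gpr107 deviated by 2.37% and 5.24% in libraries 1, -2.39% and -2.17% in libraries 2, and 0.0216% and -3.07% in libraries 3. Tom1l2 deviated by 2.04% and 8.09% in libraries 1, 0.622% and -2.57% in libraries 2, and -2.66% and -5.52% in libraries 3. This was noticed after the values were seen, and was not tested.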
